A study of Ovis aries with 36 samples.

Results

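KCNMA1, DLG2, RIMS2 and STXBP5L encode a potassium channel and proteins that organise or restrain signalling at synapses. They were followed here through 9 skeletal muscles of the sheep. The study named KCNMA1 for Semimembranosus (SM) against Supraspinatus (SS) and for Longissimus lumborum (LL) against SS, DLG2 for Semitendinosus (ST) against SS and LL against SS, RIMS2 for SM against SS, and STXBP5L for ST against SS and ST against Gluteus medius (GM). The coordinates given for these 4 genes lead to 7 loci with an Ensembl gene, out of 24763 such loci and 31136 loci in all, and 5 of the 7 had enough counts to be tested. Since measured differences chose the genes, every contrast that holds a muscle named for a gene is given below as a description, with no test. Tests of the 5 loci were kept to muscles that did not enter the choice of that gene and to differences between lambs. Loci that share a span with them and listed fibre genes were also tested with the other muscles included, and nothing is read from those calls about the 4 genes.

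RNA was sequenced from the same 9 muscles of each of 4 unrelated male Poll Dorset cross-bred lambs of 14 months, which gave 36 samples and 4 animals per muscle. Lambs came from different flocks and had grazed, with soy crop and grain sorghum as a supplement after weaning. Beside the 5 muscles above, the samples cover Gluteobiceps (GB), Rectus femoris (RF), Adductor (AD) and Psoas major (PM). There was no treated group, and the muscles themselves are the groups compared.

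KCNMA1 forms the pore of the large-conductance potassium channel that opens with depolarisation and a rise in calcium, and smooth muscle of blood vessels is known for it. DLG2 is a scaffold of the membrane-associated guanylate kinase family that holds channels and receptors in clusters at the membrane. RIMS2 is a scaffold of the presynaptic active zone that brings vesicles close to calcium channels, whereas STXBP5L, also called tomosyn-2, binds syntaxin and holds back vesicle fusion. A piece of muscle holds fibres, vessels, Schwann cells and axon endings, while the cell bodies of the motor neurons lie in the spinal cord. In such bulk samples, fewer cells that express a gene and less RNA per cell cannot be told apart.

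Depth was 3699148 to 6427422 counts per sample, of which the 4 most counted loci held 65.7 to 78.3%. All other loci shared 1009232 to 2151731 counts, so the synaptic genes rest on few reads. Lamb 1 had the lowest total in 9 of 9 muscles, and since the sources used here do not say which sequencing lane held which sample, lane and lamb cannot be told apart. Levels are given as CPM, counts scaled to equal library sizes by TMM (trimmed mean of M-values), as mean ± SD over the 4 lambs. Gene lengths were not used, so levels are compared between muscles and not between genes. The detection floor was set at 3 counts, which is 0.365 to 1.02 CPM depending on the sample and covers counting error only. DLG2, RIMS2 and both loci at the position of STXBP5L were each under 3 counts in 1 of 36 samples, and KCNMA1 in 0.

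**Figure D1:**
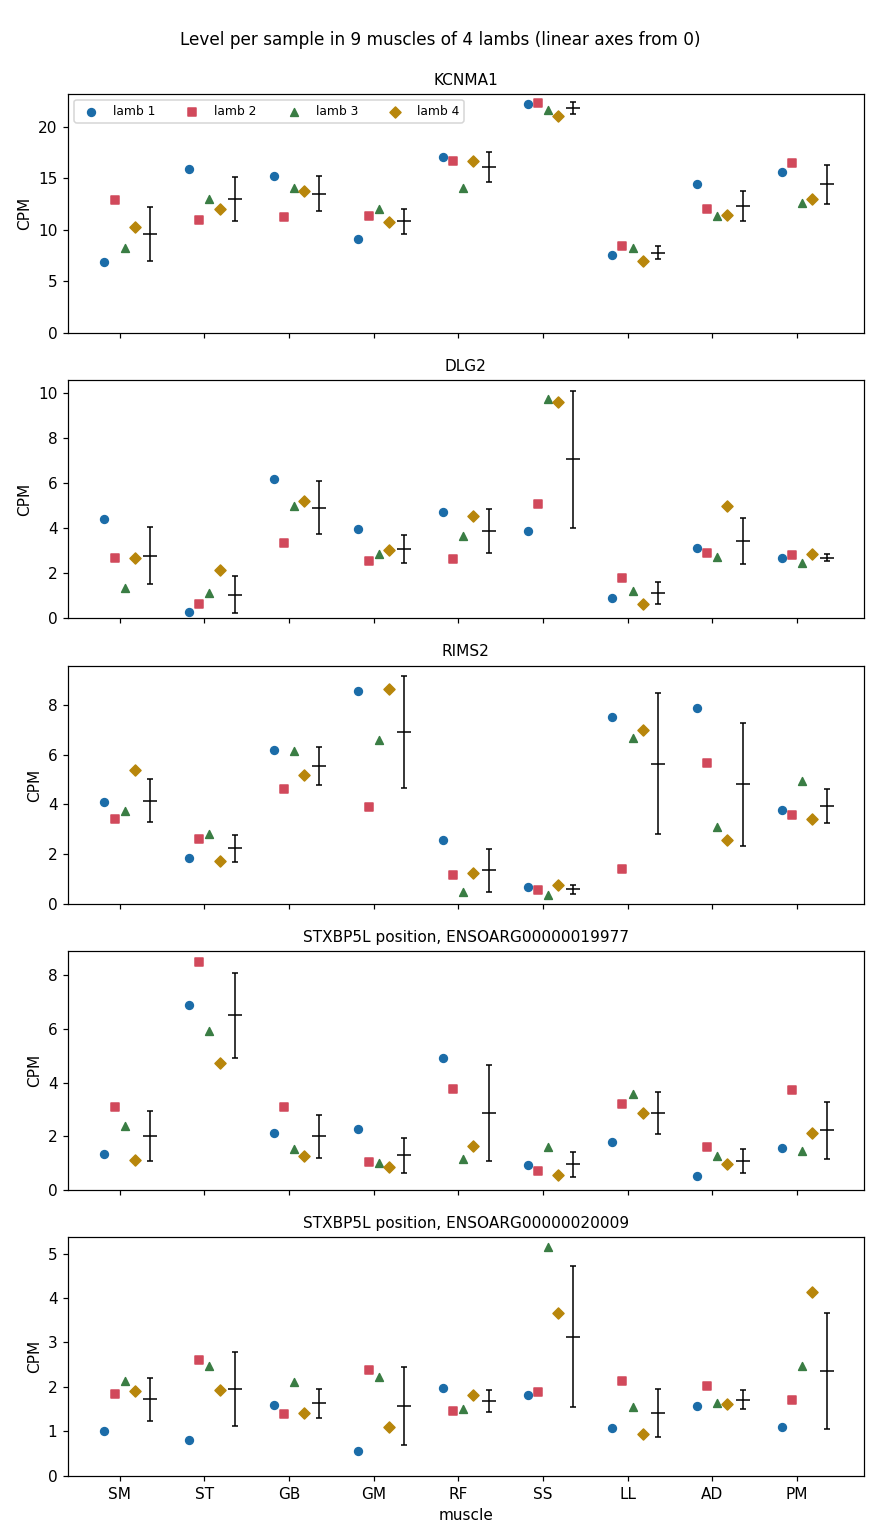
Level in CPM (vertical axes, linear and from 0) of the 5 tested loci in the 4 lambs (coloured symbols) of each of 9 muscles (horizontal axis), with the mean and SD as black marks. KCNMA1 in SS (21 to 22.3 CPM) lies above every other sample, RIMS2 is at most 0.77 CPM in SS, and ENSOARG00000019977 is highest in ST (4.72 to 8.49 CPM).

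KCNMA1 was highest in SS, at 21.8 ± 0.611 CPM (n = 4), and lowest in LL, at 7.76 ± 0.643 CPM. Its locus is ENSOARG00000009163, on chromosome 25 from 32480589 to 33017828 of Oar_v3.1. In SS the 4 lambs had 22.2, 22.3, 21.6 and 21 CPM, from 97, 154, 122 and 109 counts. Every one of them was above all 32 samples of the other muscles, the next being RF with 17.1, 16.7, 14 and 16.7 CPM. The coefficient of variation in SS was 2.81%, under the 9.11% that counting alone gives at that number of reads.

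In LL the lambs had 7.5, 8.37, 8.2 and 6.98 CPM of KCNMA1, so the ranges of LL and SS lay far apart. The level in SM spread more, with 6.81, 12.9, 8.26 and 10.3 CPM, and its range overlapped that of every other muscle except RF and SS. Between LL and SS the mean was 14.4 ± 1.92 CPM in PM, 13.5 ± 1.68 in GB, 13 ± 2.16 in ST, 12.3 ± 1.46 in AD and 10.8 ± 1.25 in GM. Apart from SS and RF, no neighbours in the order of the 9 means had separate ranges. As a description of the contrasts that chose the gene, the log2FC was -1.16 for SM minus SS and -1.49 for LL minus SS, and KCNMA1 was lower than in SS in 4 of 4 lambs in both.

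Among the 6 muscles that did not enter its choice (ST, GB, GM, RF, AD and PM), mean KCNMA1 ran from 10.8 CPM in GM to 16.1 CPM in RF. Tested jointly, the 6 muscles did not differ at an FDR of 0.01 in edgeR (adjusted p = 0.13, unadjusted p = 0.0203). With the quasi-likelihood test of edgeR and Benjamini-Hochberg adjustment over 12461 loci, 0 of 15 pairs passed an FDR of 0.01 with an absolute log2FC above 1, and DESeq2 also called 0, although 3 pairs had an unadjusted p under 0.05. Over all loci, 0.537% of the locus-pair tests among these muscles passed. The log2FC of the 15 pairs ran from -0.57 to 0.40, all within the fold threshold. The pair nearest to a call was GM against RF, in which KCNMA1 was lower in GM in 4 of 4 lambs with a log2FC of -0.57 (SE 0.139 for the differences within lambs, adjusted p = 0.0617 in edgeR).

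At the position of KCNMA1 lie 3 Ensembl loci with the same recorded span, and the name was given here to the one with the most counts. The other two, ENSOARG00000009394 and ENSOARG00000021280, had 9 and 3 counts in all 36 samples together, against 2722 for ENSOARG00000009163, and were not tested. Further, 3 assembled loci without an Ensembl gene share the span. XLOC_018933 had 342 counts, XLOC_018932 had 183, and XLOC_018934 had 125 and was removed as too low. XLOC_018933 was 2.46 ± 0.542 CPM in SS and 2.41 ± 0.724 CPM in RF, against 1.24 ± 0.365 CPM in LL and 1.06 ± 0.742 CPM in SM. Those are also the 2 highest and the 2 lowest muscles of KCNMA1, but SS, LL and SM entered its choice, and nothing is read from this. XLOC_018932 had another order, highest in GB at 1.44 ± 0.621 CPM and lowest in SM at 0.216 ± 0.146 CPM. Its mean was 1.07 ± 0.115 CPM in SS, 1.03 ± 0.49 CPM in RF and 0.774 ± 0.12 CPM in LL. Among GB, RF, AD and PM neither differed, with an adjusted p of 0.564 for XLOC_018933 and 0.546 for XLOC_018932 in edgeR's joint test, which 0.811% of all loci passed. In the joint test of 9 muscles, which 9.73% of all loci passed, the adjusted p was 0.295 and 0.0522. For both, 0 of 36 pairs were called by edgeR or DESeq2, with 5 and 10 pairs at an unadjusted p under 0.05.

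DLG2, the scaffold gene, was also highest in SS, at 7.08 ± 3.04 CPM, and lowest in ST and LL, at 1.06 ± 0.814 and 1.13 ± 0.493 CPM. The locus is ENSOARG00000005183 on chromosome 21 from 10629346 to 11743008, with 688 counts in all. In SS the lambs had 3.89, 5.08, 9.74 and 9.63 CPM, from 17, 35, 55 and 50 counts. Lambs 3 and 4 thus stood well above lambs 1 and 2, and SS overlapped GB, RF, AD, GM and SM.

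In ST the 4 lambs had 0.266, 0.653, 1.15 and 2.15 CPM of DLG2, from 1, 3, 7 and 10 counts. In LL they had 0.893, 1.78, 1.2 and 0.635 CPM, from 5, 10, 7 and 4 counts. All 8 samples were under every sample of SS. The remaining means were 4.93 ± 1.17 CPM in GB, 3.89 ± 0.964 in RF, 3.44 ± 1.04 in AD, 3.1 ± 0.623 in GM, 2.78 ± 1.27 in SM and 2.7 ± 0.168 in PM. In that order PM and LL were the only neighbours whose ranges did not overlap. The contrasts behind the choice gave a log2FC of -2.69 for ST minus SS and -2.61 for LL minus SS, and DLG2 was higher in SS in 4 of 4 lambs in both.

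None of the 15 pairs among SM, GB, GM, RF, AD and PM was called for DLG2 by edgeR's quasi-likelihood test, nor by DESeq2, and 3 pairs had an unadjusted p under 0.05. Over all loci, 0.312% of the locus-pair tests among these muscles passed. The log2FC ran from -0.83 to 0.84. GB was higher than PM in 4 of 4 lambs, with 6.19, 3.37, 4.98 and 5.2 CPM against 2.68, 2.8, 2.48 and 2.86 CPM. These ranges did not overlap, but the log2FC of 0.84 (SE 0.187) had an adjusted p of 0.237 in edgeR.

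A locus without an Ensembl gene, XLOC_016458, has the same recorded span as DLG2 and was chosen by position alone. In ST the lambs had 1, 0, 0 and 0 counts, in SS 2, 13, 16 and 11, in GB 5, 10, 8 and 10, and in LL 2, 3, 2 and 1. SS replicate 1 fell within the LL range, and ST lay under every sample of SS and GB. The mean was highest in SS and GB, at 1.82 ± 0.996 and 1.31 ± 0.287 CPM. Among GB, RF, AD and PM, which did not enter the choice of DLG2, XLOC_016458 did not pass the joint test (edgeR, adjusted p = 0.708).

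With all 9 muscles the joint test passed (edgeR, adjusted p = 0.00176), and 3 of 36 pairs were called, ST against GB, ST against SS and SS against LL, beside 0.739% of the locus-pair tests over all loci. Every one of these pairs holds a muscle that chose DLG2. These calls are therefore not independent of the choice, and nothing is read from them. The counts are also low, with 16 of 36 samples under 3 counts. The joint call was lost without lamb 2, 3 or 4 (adjusted p of 0.0318, 0.04 and 0.0662), and the pairs called then fell to 1. The files give no strand, and the sources used here do not state whether counting used it, so reads of DLG2 and of a transcript on the other strand or inside an intron cannot be told apart. Of the other loci on this span, XLOC_016456 and XLOC_016457 had 162 and 116 counts and were removed as too low.

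**Figure D2:**
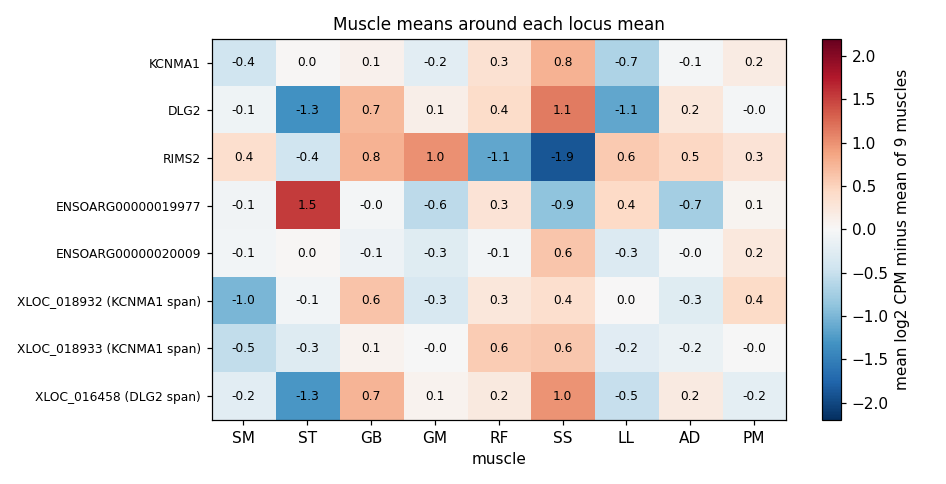
Mean log2 CPM in each muscle (columns) minus the mean over the 9 muscles, for the 5 tested Ensembl loci and 3 tested loci without an Ensembl gene that share a span with them (rows), with red above and blue below that mean. DLG2 and XLOC_016458 have their lowest cell in ST (-1.34 and -1.28) and their highest in SS (1.14 and 0.99), while the 2 loci at the position of STXBP5L differ in ST (1.53 against 0.03) and in SS (-0.89 against 0.61).

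RIMS2, the active zone gene, had another order of muscles, highest in GM at 6.9 ± 2.23 CPM and lowest in SS at 0.598 ± 0.18 CPM. It was the only one of the 5 tested loci that passed a test in muscles that had not entered its choice. The locus is ENSOARG00000015979 on chromosome 9 from 72976729 to 73464816, with 812 counts in all. In SS the lambs had 0.686, 0.58, 0.354 and 0.77 CPM, from 3, 4, 2 and 4 counts, which is near the floor in each. In SM, the muscle it was compared with when the gene was chosen, they had 4.08, 3.4, 3.73 and 5.37 CPM. These ranges lay apart, and the log2FC of SM minus SS was 2.77.

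GM had 8.54, 3.88, 6.57 and 8.63 CPM of RIMS2 in the 4 lambs, and GB had 6.19, 4.63, 6.13 and 5.2 CPM. RF was low, with 2.56, 1.16, 0.499 and 1.27 CPM from 13, 8, 3 and 7 counts. Every sample of GM and of GB was above every sample of RF. The means of the other muscles were 5.64 ± 2.83 CPM in LL, 4.8 ± 2.45 in AD, 4.15 ± 0.865 in SM, 3.94 ± 0.694 in PM and 2.25 ± 0.54 in ST. Between neighbours in the order of means, PM and ST were alone in having separate ranges.

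Among GB, RF, AD and PM, which entered the choice of none of the 4 genes, RIMS2 differed in the joint test (edgeR, adjusted p = 0.00259), which 0.811% of all loci passed. KCNMA1, DLG2, ENSOARG00000019977 and ENSOARG00000020009 did not, with adjusted p of 0.397, 0.327, 0.157 and 0.645. With 1 lamb left out the call held only without lamb 2 (adjusted p = 0.00634), and it was lost without lamb 1 (0.0188), lamb 3 (0.0612) or lamb 4 (0.0246). Without the animal in the model, the adjusted p was 0.02. Of the 6 pairs of these 4 muscles 2 were called, against 0.146% of such tests over all loci, and RF was the lower muscle in both. The log2FC of GB minus RF was 2.04 (SE 0.37, adjusted p = 0.00185 in edgeR), and that of RF minus AD was -1.82 (SE 0.274, adjusted p = 0.00593). The call between RF and AD was lost with any 1 of the 4 lambs left out (adjusted p of 0.0216 to 0.0563), and that between GB and RF was kept only without lamb 2. Without the block 0 of the 6 pairs were called. RF minus PM, at -1.56 (SE 0.444, adjusted p = 0.016), was not called.

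With ST, GM and LL added, which entered the choice of the other genes, 5 of 21 pairs were called for RIMS2, against 0.53% of the locus-pair tests over all loci. RF was lower than GM in 4 of 4 lambs, with a log2FC of 2.34 for GM minus RF (SE 0.366, adjusted p = 1.1e-04 in edgeR). It was also lower than LL, with a log2FC of -2.03 for RF minus LL (SE 0.596, adjusted p = 3.9e-04). ST was lower than GM in 4 of 4 lambs, with a log2FC of -1.54 (SE 0.38, adjusted p = 0.00284). With lamb 2 left out 4 of the 5 calls remained, with lamb 1 left out 2 did, and with lamb 3 or lamb 4 left out 1 did. The call between GM and RF was kept in all 4 of these fits. A fit without the animal as a block gave 2 calls, GM against RF and RF against LL.

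**Figure D3:**
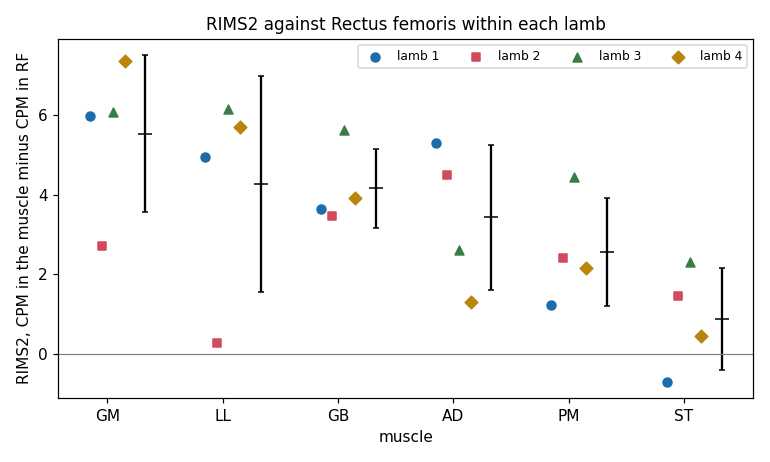
RIMS2 level in CPM in 6 muscles minus the level in RF of the same lamb (vertical axis, linear), with a symbol for each of 4 lambs and the mean and SD in black. GM, LL, GB, AD and PM lie above RF in 4 of 4 lambs and ST in 3 of 4, and lamb 2 is close to 0 in LL.

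In LL the lambs had 7.5, 1.43, 6.66 and 6.98 CPM of RIMS2, from 42, 8, 39 and 44 counts. LL replicate 2 lay within the range of RF, and the other three were above it. The mean without this sample was 7.05 ± 0.425 CPM (n = 3). As a whole, LL replicate 2 correlated with the mean of the other LL samples at r = 0.928 over loci, while the other LL samples had 0.933 to 0.948. Without it 8 of 21 pairs were called. The additional pairs were ST against GB, ST against LL and RF against PM. AD was also spread, with 7.87, 5.66, 3.1 and 2.57 CPM, and its lowest sample was barely above the highest of RF, at 2.56 CPM.

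The locus ENSOARG00000019977, at the position of STXBP5L, was highest in ST at 6.51 ± 1.59 CPM and lowest in SS at 0.953 ± 0.449 CPM. In ST the lambs had 6.9, 8.49, 5.94 and 4.72 CPM, and in SS 0.915, 0.725, 1.59 and 0.578 CPM. In GM they had 2.28, 1.05, 0.991 and 0.851 CPM. ST overlapped neither SS nor GM, and the only muscle that reached into its range was RF, with 4.93, 3.78, 1.16 and 1.63 CPM. The contrasts that chose the gene gave a log2FC of 2.74 for ST minus SS and 2.41 for ST minus GM.

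ENSOARG00000020009 has the same recorded span, chromosome 1 from 183898068 to 184335029, and a similar number of counts in all, 397 against 480. Its level in ST was 0.797, 2.61, 2.47 and 1.93 CPM, and in SS 1.83, 1.89, 5.14 and 3.66 CPM. It was highest in SS at 3.13 ± 1.59 CPM and lowest in LL at 1.42 ± 0.538 CPM, and its ranges overlapped in 36 of 36 pairs of muscles. For ENSOARG00000019977 they did not overlap in 9 of 36 pairs, of which 1 was among the 15 pairs of muscles that had not entered its choice. Over all loci 6.19% of the locus-pair comparisons did not overlap, and nothing is read from the 9. ST minus SS was -0.64 on the log2 scale for ENSOARG00000020009, the opposite sign to ENSOARG00000019977, and this difference between the loci was not tested. The coordinates alone do not tell which of these loci the name STXBP5L belongs to.

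In each of the 27 chromosomes, locus numbers run in 3 successive series sorted by position, the last of which holds 0 loci with an Ensembl gene. ENSOARG00000019977 is in series 1 and ENSOARG00000020009 in series 2, and the loci without an Ensembl gene on the spans of KCNMA1 and DLG2 are all in series 3. What the series stand for is not given in the sources used here. Among SM, GB, RF, LL, AD and PM, edgeR called 0 of 15 pairs for each of the loci at the position of STXBP5L. DESeq2 called 0 as well, and over all loci 0.415% of the locus-pair tests passed. An unadjusted p under 0.05 was found in 5 pairs for ENSOARG00000019977 and in 1 for ENSOARG00000020009. The nearest to a call was ENSOARG00000019977 in RF minus AD, with a log2FC of 1.29 (SE 0.571, adjusted p = 0.102 in edgeR). LL minus AD had 1.36 (adjusted p = 0.12 in edgeR), and its ranges did not overlap. The differences within lambs for LL minus AD had a mean of 1.18 (SE 0.104).

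Muscle accounted for 84.6% of the sum of squares of log2 CPM for KCNMA1, 78.7% for RIMS2, 76.1% for DLG2 and 69.2% for ENSOARG00000019977. These shares hold the contrasts that chose the genes, and the median over all loci tested was 28.7%. For ENSOARG00000020009 the share of muscle was 26.2% and that of lamb 26.9%, against a median of 15.4% for lamb over all loci. Ranges did not overlap in 17 of 36 pairs of muscles for KCNMA1, 16 for RIMS2 and 14 for DLG2, to be set beside the 6.19% above, and since the choice used part of these pairs nothing is read from those counts.

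Differences between lambs did not enter the choice, and none of the 5 loci passed the joint test of lambs at an FDR of 0.01, which 17.6% of all loci passed. The adjusted p in edgeR was 0.0401 for ENSOARG00000019977, 0.0777 for ENSOARG00000020009, 0.172 for RIMS2, 0.347 for DLG2 and 0.77 for KCNMA1. DESeq2 did not call any of them either, and the unadjusted p was under 0.05 for both loci at the position of STXBP5L. Lamb 2 was above the muscle mean of ENSOARG00000019977 in 7 of 9 muscles, by 0.36 on the log2 scale on average. Lamb 4 was above it in 2 of 9, with a mean deviation of -0.31. For ENSOARG00000020009 lamb 1 was above the mean in 1 of 9 muscles (-0.43 on average) and lamb 3 in 7 of 9 (0.28).

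**Figure D4:**
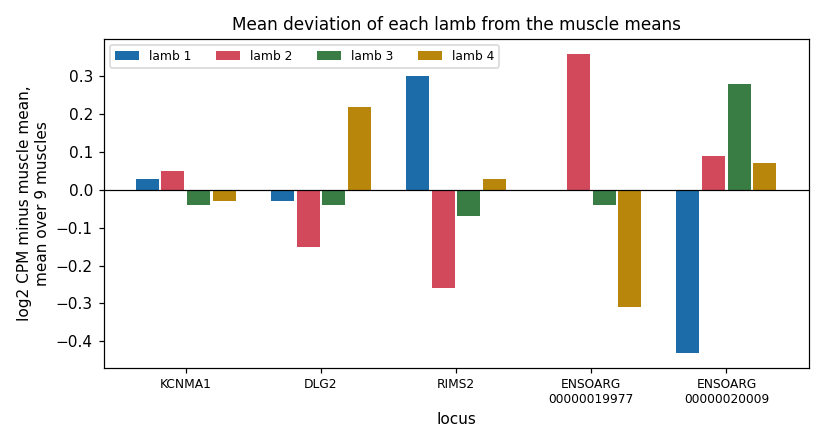
Deviation of each of 4 lambs (coloured bars, from 0) from the muscle mean in log2 CPM, averaged over 9 muscles, for the 5 tested loci (horizontal axis). KCNMA1 stays between -0.04 and 0.05, whereas ENSOARG00000020009 runs from -0.43 in lamb 1 to 0.28 in lamb 3.

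Across the 36 samples, with the mean of each lamb subtracted, KCNMA1 and DLG2 had r = 0.53 and KCNMA1 and RIMS2 had r = -0.64. These are descriptions over samples that share libraries and the muscles that chose the genes. Without the 4 SS samples they were 0.35 and -0.38 (32 samples). DLG2 and ENSOARG00000019977 had r = -0.59, and -0.55 without SS. Leaving out SS does not free these values of the choice. ST stayed in and entered the choice of DLG2 and of STXBP5L, with DLG2 lowest and ENSOARG00000019977 highest there. LL likewise entered the choice of KCNMA1 and DLG2, and SM that of KCNMA1 and RIMS2. The 2 loci at STXBP5L had r = -0.10, and 0.05 without SS. ENSOARG00000020009 had r = 0.50 with KCNMA1, 0.38 with DLG2 and -0.40 with RIMS2. Without SS these were 0.30, 0.15 and -0.10.

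By the same measure, each gene was set beside the 9292 other tested loci with an Ensembl gene. The files do not pair identifiers with symbols, and coordinates in the study's tables gave a name to few of these loci. Most like KCNMA1 were ENSOARG00000006967 (r = 0.82), ENSOARG00000015112 (r = 0.80) and EYA1 (r = 0.77), a transcriptional coactivator known for its part in muscle development. The study listed EYA1 for the contrasts that chose KCNMA1, SM against SS and LL against SS. The span of ENSOARG00000015112 holds an unannotated transcript that the study linked to MYBPC1 and listed for SM against SS. Both likenesses are therefore not independent of the choice. DLG2 was most like ENSOARG00000019316 (r = 0.79), ENSOARG00000017779 (r = 0.75) and ENSOARG00000011188 (r = 0.74). By position, ENSOARG00000017779 is 1 of 2 loci on the span that holds MYL2, the slow regulatory myosin light chain, and CCDC63. ENSOARG00000011188 is 1 of 3 loci at the position of MYH7B, a slow-type myosin heavy chain, and these names were not assigned among the loci. MYL2, CCDC63 and MYH7B were listed by the study for ST against SS, as DLG2 was, so these likenesses are not independent of the choice either. ENSOARG00000011188 was also the locus most opposite to ENSOARG00000019977 (r = -0.76).

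The loci most like RIMS2 were ENSOARG00000011858 (r = 0.81), ENSOARG00000000636 (r = 0.78) and ENSOARG00000020844 (r = 0.76). For ENSOARG00000019977 they were ENSOARG00000015644 (r = 0.76), ENSOARG00000014923 (r = 0.75) and ENSOARG00000020013 (r = 0.74). The likeness was weaker for ENSOARG00000020009, with ENSOARG00000007167 (r = 0.65), ENSOARG00000011422 (r = 0.60) and ENSOARG00000015353 (r = 0.59). These correlations were not tested.

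Genes of slow fibres were also looked at in these muscles. Of 18 listed slow fibre genes 10 could be paired with a locus by position. They could be paired because the study had listed them as differing on the same samples, so neither how many passed nor their direction is independent evidence, and the shares of all loci are given only as a background. In edgeR's joint test of 9 muscles 9 of the 10 passed, against 9.73% of all loci. In ST against SS 9 were called higher in SS (1.56% of all loci) and 0 in ST, with a median log2FC of -3.24 for ST minus SS, beside -0.01 over all loci. SS was also the higher muscle for 6 in SM against SS (2.49% of all loci) and 7 in LL against SS (1.16%), and GM was for 8 in ST against GM (1.56%).

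TPM3, the slow tropomyosin, was 140 CPM in SS, 98.2 in GM, 49.6 in RF and 14.9 in ST as the mean of 4 lambs, and ran from 10 to 284 CPM over the 36 samples. MYOZ2, a Z-disc protein of slow fibres, was 53.9, 18.6, 5.93 and 2.71 CPM in the same muscles, and ATP2A2, the slow calcium pump, 404, 199, 211 and 55.8 CPM. MYL3, a slow myosin light chain, was 57.3 CPM in SS, 53.7 in GM, 45.8 in RF and 2.84 in ST. Single samples spread widely around such means, with MYL3 from 1.09 to 206 CPM over the 36 samples. MYOZ2 ran from 1.52 to 73.9 CPM and ATP2A2 from 44.3 to 531 CPM. The locus at the position given for PDLIM1 did not pass (edgeR, adjusted p = 0.945), at 2.75 CPM in SS and 2.53 in ST, and whether it holds the reads of that gene was not tested. Among 23 listed fast fibre genes only PVALB, a calcium buffer of fast fibres, could be paired. The study had listed PVALB for SM against SS on the same samples, so its calls are not independent evidence. PVALB passed the joint test (edgeR, adjusted p = 6.1e-13). It was called higher in SS than in SM and LL, and higher in ST than in GM (0.642% of all loci). Its mean was 0.514 CPM in GM, 5.63 in SS, 7.29 in RF and 5.68 in ST. The part of fibre composition in the levels of the 4 genes was not tested.

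For 12 further lists 0 genes could be paired with a locus, and no value is given for them. They were channel subunits, other potassium channels, partners of DLG2, release machinery, the postsynaptic side of the neuromuscular junction, Schwann cells and axons, vascular smooth muscle, endothelium, adipocytes, connective tissue, immune cells and general markers of skeletal muscle. The labelled tissue was therefore not checked against its defining markers, and the cell types behind the counts of KCNMA1, DLG2, RIMS2 and STXBP5L were not analysed here.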

How the data were processed

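RNA-Seq counts of 36 samples (9 muscles of 4 lambs) were used. Reads had been aligned by the authors to Oar_v3.1 (TopHat2 2.0.13). They assembled loci with Cufflinks 2.2.1 on top of the Ensembl annotation, and counted them with HTSeq; the deposited values are whole-number counts per locus without normalization. Entries repeated for 1 locus were used once, which left 31136 of 31530. Recorded spans are shared by overlapping loci, and strand is not given in the sources used here.

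Loci were filtered with filterByExpr by muscle (12461 left), normalized with TMM and fitted with muscle and animal in edgeR 4.0.16 (R 4.3.3, limma 3.58.1), using robust quasi-likelihood tests with Benjamini-Hochberg adjustment. A call needed an FDR of at most 0.01 and, for pairs, an absolute log2FC above 1, the fold threshold of the study. The common biological CV was 0.195. The SE is that of the 4 differences within lambs in log2 CPM (prior count 2). It is not the SE of the log2FC of edgeR printed beside it, from which the mean of those differences can depart. Pair tests numbered 81 for the 5 Ensembl loci and 108 for the 3 tested loci sharing their spans. The tests were checked on simulated counts in which 200 loci were changed in SS. For GM against SS, 68 of 100 loci changed 2.5-fold and 85 of 100 changed 4-fold were called, with 1 false call. A missing call therefore does not show that levels are equal.

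The block for animal is that of the study and uses the animal number in each label. Deviations of samples from their muscle mean had a mean r of 0.236 (-0.0242 to 0.43) over 144 pairs of samples of the same lamb and -0.0777 over 432 pairs that differed in lamb and muscle; subtracting muscle means ties these values together.

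The genes named were the tested loci at the 4 positions, every tested locus sharing their span, the 3 Ensembl loci with the highest r to each, and, per list, at most 4 genes called and 2 not called. 1 most opposite locus is given in addition. Members and lists were chosen with earlier results of these data known. Names were paired through coordinates in the study's tables, of which at least 90% had to lie in the locus; a RefSeq table of a later assembly paired 0 identifiers. Alternatives were the likelihood ratio test, DESeq2 1.42.0, RLE size factors, the 4 most counted loci left out, an FDR of 0.05, no filter, a minimum of 10 counts per sample, no block and each lamb left out. No genome sequence was used.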

Additional observations from a re-analysis of the deposited data

Results flagged for a closer look

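In each of 45 groups of 4 samples (5 loci in 9 muscles), the gap between the most distant sample and the nearest of the others was compared with the whole range by Dixon's criterion, and 4 groups passed. Chance passes about 1 in 20 such groups. RIMS2 in LL replicate 2 was 1.43 CPM, while the other LL samples had 6.66 to 7.5 CPM, and the gap was 0.861 of the range. KCNMA1 in RF replicate 3 was 14 CPM, against 16.7 to 17.1 CPM in the other RF samples (0.856 of the range). ENSOARG00000019977 in GM replicate 1 was 2.28 CPM, against 0.851 to 1.05 CPM (0.864 of the range). ENSOARG00000020009 in AD replicate 2 was 2.03 CPM, against 1.57 to 1.64 CPM (0.858 of the range). The causes were not tested.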

How the results depend on the processing

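No result reversed its sign. Of 577 values computed under the alternatives, 539 stayed on their side of the threshold or within the spread. Without replicate block, the RIMS2 joint test among GB, RF, AD and PM had an adjusted p of 0.02, RIMS2 had 2 calls among its 21 pairs, and XLOC_016458 had an adjusted p of 0.0121 in the joint test of 9 muscles and 1 call among 36 pairs; the block changed the call of no other joint test or count, and single RIMS2 pairs lost were GB-RF, RF-AD and ST-GM. With 1 lamb left out at a time, the adjusted p of the RIMS2 joint test ran from 0.00634 to 0.0612 and its calls from 1 to 5, and those of XLOC_016458 ran from 0.00234 to 0.0662 and from 1 to 3. At an FDR of 0.05 RIMS2 had 8 calls, XLOC_016458 had 7 and XLOC_018932 had 4, and the lamb effect of ENSOARG00000019977 passed (adjusted p = 0.0401). The likelihood ratio test gave 7 calls for XLOC_016458 and 1 for XLOC_018932. Leaving out LL replicate 2, an alternative chosen after seeing the data, gave 8 calls for RIMS2, an adjusted p of 2.8e-04 in its joint test and 0.00142 in that of XLOC_016458. XLOC_018932 was too low for the filter without lamb 1 or 2 and has no value there. The alternatives for the loci without an Ensembl gene were also added after seeing the data. With at least 10 counts in every sample 5151 loci remained, and of the 5 tested loci KCNMA1 alone had a value. Counts of 2 to 4 per sample for RIMS2 in SS limit its folds there.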
